A study of Homo sapiens with 6 samples.

Results

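The human mitochondrial genome encodes 37 RNAs, and all of them had an entry in the deposited expression table of 57232 genes. They were chosen by their symbols, which begin with MT-. Of the 37 genes, 13 encode proteins, 2 encode the rRNAs of the mitochondrial ribosome and 22 encode tRNAs. The values came from IMR90 cells, human fetal lung fibroblasts, that had been transduced either with ARID1B cDNA or with an empty vector, with 3 libraries in each group. ARID1B is a DNA-binding subunit of the SWI/SNF chromatin remodelling complex. Cells of both groups had reached passage 13, stayed under puromycin up to day 4 of infection and gave on day 6 the RNA that was sequenced from stranded mRNA libraries. The cells are a single line, and the study describes the libraries of a group as biological replicates, so the p-values measure the spread between such replicates of this line. The values are FPKM, fragments scaled by the length of the transcript and by the mapped fragments of the library, which allow levels to be compared between genes of different length.

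Both strands of mitochondrial DNA are transcribed as long precursors. The heavy-strand precursor carries both rRNAs, most tRNAs and every mRNA except MT-ND6, which lies on the light-strand precursor together with the remaining tRNAs. The tRNAs separate most of the genes, and their excision releases the mRNAs and rRNAs, most of which then receive short poly(A) tails. The proteins are core subunits of respiratory complexes I, III and IV and of ATP synthase, and their mRNAs are read by the mitochondrial ribosome.

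The ARID1B gene (ENSG00000049618) was measured at 32.5, 21.0 and 28.3 FPKM in ARID1B cells, against 2.29, 1.31 and 2.05 FPKM in vector cells. The groups did not overlap, and the difference passed the test (log2 change 3.29, SE 0.208, limma adjusted p = 0.0255). Library totals recovered from the FPKM steps lay between 70022493 and 91924514 reads in ARID1B cells, and between 63386813 and 90548577 reads in vector cells. The 6 fibroblast markers summed to 1762 to 2387 FPKM in ARID1B cells and 1878 to 2406 FPKM in vector cells. The 5 epithelial markers summed to 11.7 to 18.4 FPKM in ARID1B cells and 8.96 to 23.0 FPKM in vector cells, with SFTPC at 0 in every library, and the 3 smooth muscle markers to 10.1 to 10.7 FPKM in ARID1B cells and 7.94 to 11.9 FPKM in vector cells. The 3 endothelial markers found reached 0.352 FPKM at most, with CDH5 at 0, and the 4 blood markers 0.0597 FPKM, with CD3E at 0. On the first principal component of all genes, vector replicate 2 was far from the rest, at -48.5, and the next lowest library was at -3.63. Log2 changes of named genes that moved by over 1.5 times or turned sign without it are given both ways.

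No mitochondrial gene passed the test, although every mitochondrial mRNA and rRNA had a higher fitted level in ARID1B cells than in vector cells. Of the 37 genes, 25 reached the mean of 1 FPKM required for the test, namely all 13 mRNAs, both rRNAs and 10 tRNAs. With limma and Benjamini-Hochberg adjustment, 0 of these 25 passed the threshold of 0.05, and the lowest adjusted p was 0.285. With each library left out in turn, the lowest limma adjusted p lay between 0.0631 (without vector replicate 2) and 0.976 (without ARID1B replicate 3). It was 0.692 without ARID1B replicate 1, 0.294 without ARID1B replicate 2, 0.422 without vector replicate 1 and 0.808 without vector replicate 3. Of all 10416 genes in the fit, 0.0288% were called higher and 0% lower. With p under 0.05 before adjustment, 5 of the 25 were higher (MT-ND5, MT-ND4L, MT-ATP8, MT-ND4 and MT-RNR2) and 0 lower, against a background of 4.64% higher and 5.94% lower. The log2 change was above 0 for 13 of 13 mRNAs and 2 of 2 rRNAs, compared with 47.6% of all genes tested. Under quantile normalization it turned below 0 for MT-ND1 (-0.04) and MT-ND3 (-0.28). All of these mRNAs and rRNAs but MT-ND6 lie on the same precursor, and all were measured in the same libraries. They are not independent of each other, so these counts are not tests against the background shares. The median log2 change of the 13 mRNAs was 0.45, against -0.02 over all genes, and it lay between 0.25 (without ARID1B replicate 2) and 0.70 (without vector replicate 2) when each library was left out in turn.

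The largest fitted log2 changes among the 25 were those of MT-ND4L and MT-ND5, mRNAs of complex I, the enzyme that takes electrons from NADH. MT-ND4L (ENSG00000212907), a small subunit of its membrane arm, was measured at 2026, 3038 and 2126 FPKM in ARID1B cells and at 1219, 612 and 1052 FPKM in vector cells. The ARID1B libraries all lay above the vector libraries, and the lowest value of the 6 was that of vector replicate 2. The log2 change was 1.35 (SE 0.304, limma adjusted p = 0.301), and without vector replicate 2 it was 1.06 (adjusted p = 0.0631). MT-ND5 (ENSG00000198786), a proton-pumping subunit of the same arm, was measured at 1150, 2093 and 1308 FPKM in ARID1B cells and at 692, 523 and 645 FPKM in vector cells. The groups were again apart, with a log2 change of 1.25 (SE 0.256, limma adjusted p = 0.285) and 1.13 without vector replicate 2 (adjusted p = 0.0875).

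MT-ND4 (ENSG00000198886), another proton-pumping subunit, was the most abundant complex I mRNA, at 3783, 5117 and 3877 FPKM in ARID1B cells and 2552, 3535 and 2644 FPKM in vector cells. Its groups did not overlap, and its log2 change was 0.55 (SE 0.203, limma adjusted p = 0.425). The mRNAs of MT-ND1, which helps to form the quinone site, and of MT-ND2, a further pump subunit, overlapped between groups through vector replicate 2. MT-ND1 was measured at 1161, 1817 and 1259 FPKM in ARID1B cells and at 774, 1553 and 872 FPKM in vector cells. MT-ND2 was measured at 1204, 1924 and 1299 FPKM in ARID1B cells and at 677, 1521 and 799 FPKM in vector cells. For each of these genes, all ARID1B libraries were above vector replicates 1 and 3 while vector replicate 2 was above ARID1B replicates 1 and 3, with log2 changes of 0.45 for MT-ND1 and 0.62 for MT-ND2. Without vector replicate 2 these were 0.75 for MT-ND1 and 0.97 for MT-ND2, with limma adjusted p = 0.116 and 0.0875. MT-ND3, a small subunit near the junction of the arms, was the least different of the 13, at 855, 1387 and 946 FPKM in ARID1B cells and 781, 1418 and 881 FPKM in vector cells. Its log2 change was 0.07 (SE 0.291), and the sign depended on the libraries, since it was -0.14 without ARID1B replicate 2 and 0.32 without vector replicate 2.

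MT-ND6 (ENSG00000198695), the complex I mRNA of the light strand, was the lowest mRNA in every library. It was measured at 77.1, 64.6 and 75.7 FPKM in ARID1B cells and at 48.9, 89.1 and 57.2 FPKM in vector cells. Its highest and lowest values were both in vector cells, and its log2 change was 0.20 (SE 0.234, limma adjusted p = 0.777), or 0.44 without vector replicate 2. Set against the median of the other 12 mRNAs of the same library, which removes the scaling of the library, MT-ND6 stood at 4.77%, 2.35% and 4.24% in ARID1B cells and at 4.53%, 5.77% and 5.45% in vector cells. These ranges overlapped through ARID1B replicate 1, with a log2 ratio of the means of -0.47 and a range from -0.67 (without ARID1B replicate 1) to -0.22 (without ARID1B replicate 2) when each library was left out. MT-ND6 is antisense to the heavy-strand precursor, and although the kit keeps strand, the strand setting of the counting is not given in the sources used here. The library kit also selects mRNA, and the MT-ND6 level is that of RNA that passed that step.

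The mRNAs of complex IV, the cytochrome c oxidase, were the 3 most abundant mRNAs by mean level in both groups. MT-CO1 (ENSG00000198804), the catalytic subunit, was measured at 5842, 9236 and 6245 FPKM in ARID1B cells and at 5065, 5237 and 5092 FPKM in vector cells. The groups did not overlap, and ARID1B replicate 2 was far above the rest, with a log2 change of 0.44 (SE 0.207, limma adjusted p = 0.518). MT-CO2, which accepts electrons from cytochrome c, was measured at 6005, 8105 and 6000 FPKM in ARID1B cells and at 4936, 9061 and 5477 FPKM in vector cells. MT-CO3, a structural core subunit, was measured at 4111, 5728 and 4286 FPKM in ARID1B cells and at 3591, 5866 and 3810 FPKM in vector cells. For both genes the highest library was vector replicate 2, and the log2 changes of 0.08 for MT-CO2 and 0.11 for MT-CO3 were smaller than their standard errors of 0.275 and 0.247. Without vector replicate 2 they were 0.35 for MT-CO2 and 0.33 for MT-CO3, and without ARID1B replicate 2 they were -0.06 and -0.04.

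MT-CYB, the cytochrome b of complex III, was measured at 1207, 2458 and 1441 FPKM in ARID1B cells and at 943, 1538 and 1048 FPKM in vector cells. The groups overlapped through vector replicate 2, and the log2 change was 0.50 (SE 0.320, limma adjusted p = 0.632). MT-ATP6, which forms the proton channel of ATP synthase, was measured at 2695, 4180 and 2877 FPKM in ARID1B cells and at 2016, 4241 and 2293 FPKM in vector cells. Vector replicate 2 held its highest value, and its log2 change was 0.24 (SE 0.329, limma adjusted p = 0.802), or 0.57 without that library (adjusted p = 0.198). MT-ATP8 (ENSG00000228253), a small membrane subunit of the same enzyme, was measured at 1044, 1713 and 1086 FPKM in ARID1B cells and at 722, 627 and 679 FPKM in vector cells. The groups did not overlap, with a log2 change of 0.89 (SE 0.219, limma adjusted p = 0.306) and 0.83 without vector replicate 2 (adjusted p = 0.115).

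**Figure D1:**
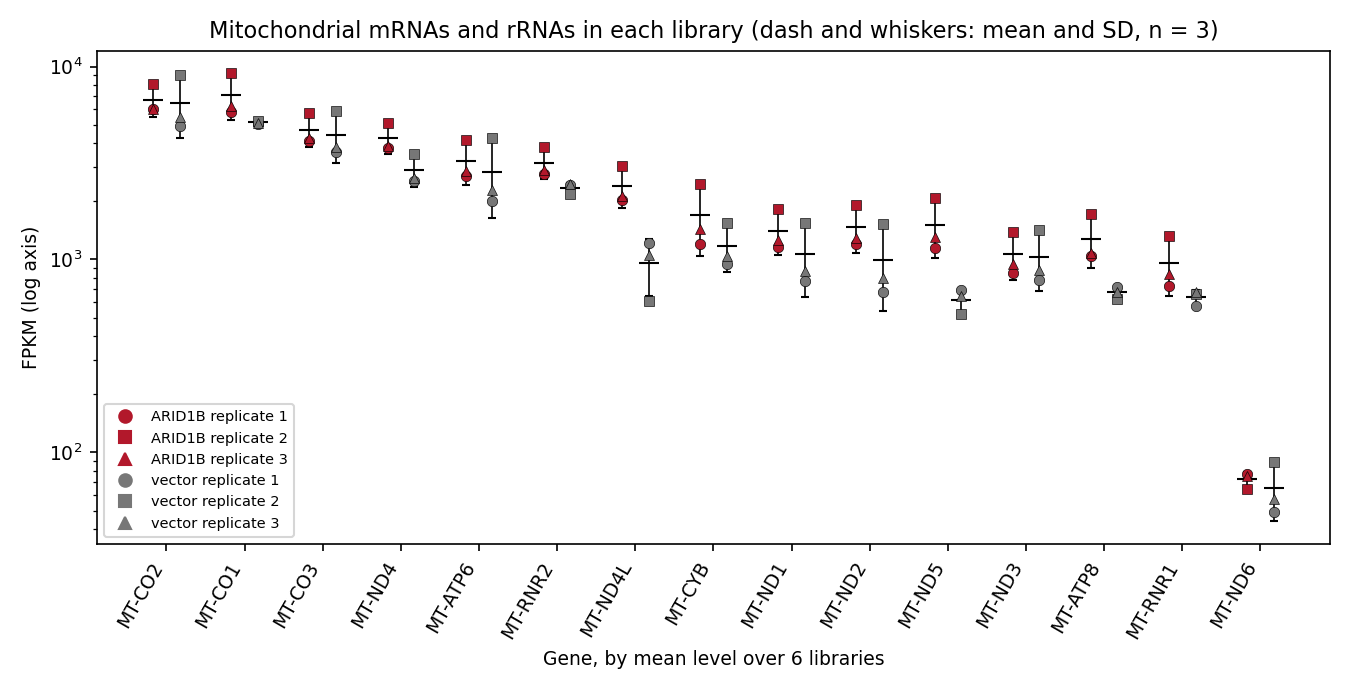
FPKM (log axis) of the 13 mitochondrial mRNAs and 2 rRNAs in each of the 6 libraries, with ARID1B in red and vector in grey; the dash and whiskers are the mean and SD of 3 libraries. The squares show that vector replicate 2 is the highest vector library for 10 of the 13 mRNAs and the lowest for MT-ND4L, MT-ND5 and MT-ATP8.

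The rRNAs showed a similar difference with no overlap. MT-RNR1, the rRNA of the small ribosomal subunit, was measured at 727, 1324 and 838 FPKM in ARID1B cells and at 571, 663 and 675 FPKM in vector cells. MT-RNR2, the rRNA of the large subunit, was measured at 2770, 3806 and 2907 FPKM in ARID1B cells and at 2419, 2178 and 2453 FPKM in vector cells. The log2 changes were 0.55 for MT-RNR1 (SE 0.243, limma adjusted p = 0.493) and 0.42 for MT-RNR2 (SE 0.171, limma adjusted p = 0.469). The summed rRNA stood at 0.112, 0.109 and 0.114 of the summed mRNA FPKM in ARID1B libraries and at 0.124, 0.0793 and 0.123 in vector libraries, so that the ARID1B values lay between the vector values. The log2 ratio of the means was 0.04, and it was -0.15 without vector replicate 2. The library kit selects mRNA, and these rRNA levels are those of RNA that passed that step.

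In all, 7 of the 25 genes tested were higher in ARID1B cells with no overlap between groups (MT-ND4L, MT-ND5, MT-ND4, MT-ATP8, MT-CO1, MT-RNR1 and MT-RNR2) and 0 were lower, against 9.44% higher and 11.1% lower among all genes tested. When only vector replicates 1 and 3 were used, 12 of the 13 mRNAs were higher in all ARID1B libraries, MT-ND3 being the exception, against a background of 18.8%. Without vector replicate 2 the median log2 change of the 13 mRNAs was 0.70, and still 0 mitochondrial genes passed, while 1.2% of all genes were called higher and 1.91% lower. Before adjustment, 9 of the 25 then had p under 0.05 and were higher, against 10% of all genes. Since the mitochondrial genes are not independent of each other, the counts in this paragraph are not tests against the background shares.

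**Figure D2:**
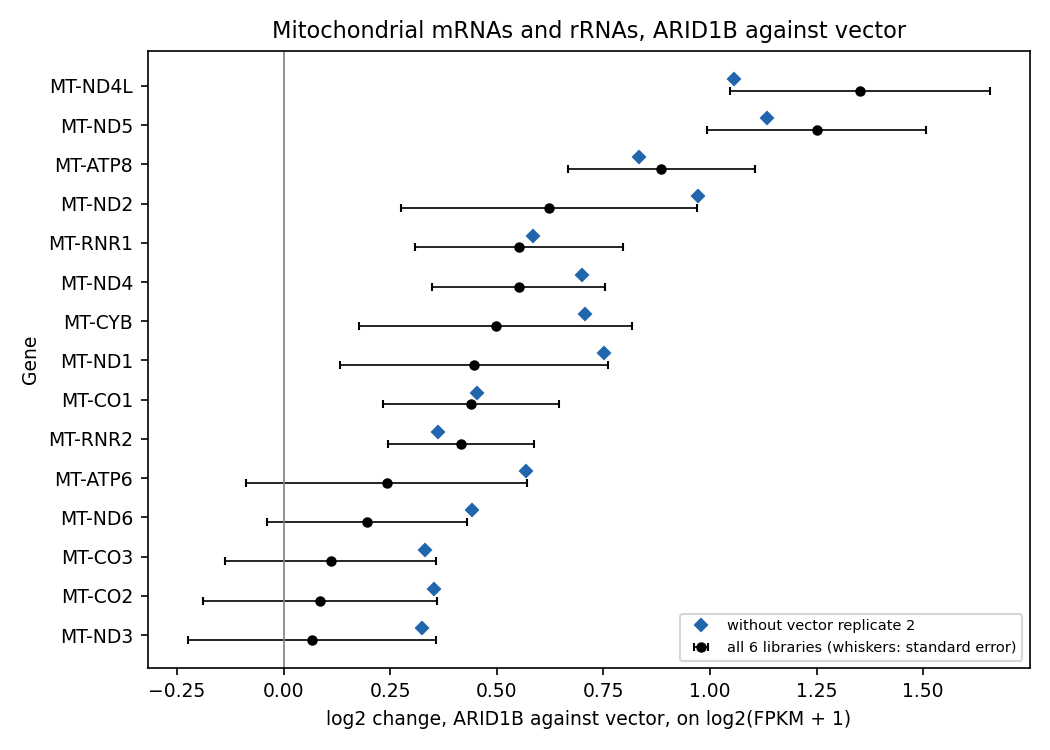
Fitted log2 change of ARID1B against vector for 13 mRNAs and 2 rRNAs, with all 6 libraries (black, whiskers give the standard error) and without vector replicate 2 (blue). All 15 lie above 0 in both fits, between 0.07 and 1.35 with 6 libraries, although MT-ND1 and MT-ND3 turned below 0 under quantile normalization and MT-CO2, MT-CO3 and MT-ND3 did so when certain other libraries were left out.

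The second libraries carried most of the spread. ARID1B replicate 2 was the highest ARID1B library for 12 of the 13 mRNAs, the exception being MT-ND6, and the highest of all 6 for 8. Vector replicate 1 was the lowest of all 6 for 10. Replicate 3 lay between replicates 1 and 2 of its own group for 14 of the 15 mRNAs and rRNAs in ARID1B cells and for 13 of 15 in vector cells, compared with 69.2% and 85.0% of the nuclear genes tested. What relates the libraries of a group in this way was not tested. The p-values, and the SDs with n = 3, take the libraries of a group as independent, and whether they are was not tested.

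As a whole, mitochondrial RNA took a larger part of the ARID1B libraries on average, with overlap between groups. The 13 mRNAs summed to 31161, 46863 and 32827 FPKM in ARID1B cells and to 24017, 35822 and 25348 FPKM in vector cells. The means were 36950 ± 8625 and 28396 ± 6465 FPKM (SD, n = 3 each), a log2 ratio of 0.38 that was 0.17 without ARID1B replicate 2 and 0.58 without vector replicate 2, the lowest and highest values with a library left out. The 37 genes held 19.7%, 27.8% and 20.9% of the total FPKM in ARID1B libraries and 16.3%, 19.7% and 16.8% in vector libraries. ARID1B replicate 1, at 19.69%, and vector replicate 2, at 19.73%, were nearly equal, and the means of 22.8% ± 4.37 and 17.6% ± 1.87 (SD, n = 3 each) differed by 5.19 percentage points, or by 2.70 points without ARID1B replicate 2. In reads, which do not weight short genes up, the share was 3.54%, 5.35% and 3.75% in ARID1B libraries and 2.78%, 3.73% and 2.91% in vector libraries, with 95% Wilson half-widths of at most 0.00512 percentage points that cover counting error only. In RNA from bulk cells, more mitochondrial RNA per cell, less nuclear RNA per cell and a different mix of cells cannot be told apart. The nuclear genes summed to 141942, 135743 and 139081 FPKM in ARID1B libraries and to 139493, 158363 and 141864 FPKM in vector libraries, so that the mitochondrial and nuclear totals were both highest among vector libraries in replicate 2.

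The makeup of the mRNA pool was apart between groups for complexes I and IV, while its size overlapped. The 13 mRNAs are counted by gene, although MT-ND4L shares a molecule with MT-ND4, and MT-ATP8 with MT-ATP6. The separate counts within each of these pairs are uncertain. Within the complex I share, MT-ND4L took a mean of 6.49% in ARID1B cells and 3.65% in vector cells. Within each library, the 7 complex I mRNAs took 32.9%, 33.0% and 33.2% of the summed FPKM of the 13 mRNAs in ARID1B cells and 28.1%, 25.8% and 27.4% in vector cells. The 3 complex IV mRNAs took 51.2%, 49.2% and 50.4% in ARID1B cells and 56.6%, 56.3% and 56.7% in vector cells. The groups did not overlap for either complex. The means differed by 5.91 percentage points for complex I, higher in ARID1B cells, and by -6.27 percentage points for complex IV. These differences were larger than the SDs of 0.143 and 0.995 points in ARID1B cells and 1.16 and 0.222 points in vector cells. The members of a complex did not all go the same way. In complex IV, MT-CO2 and MT-CO3 had lower mean shares in ARID1B cells. MT-CO1 took 19.2% in ARID1B cells and 18.6% in vector cells, with overlap. In complex I, MT-ND3 and MT-ND6 had lower mean shares in ARID1B cells, and MT-ND1, MT-ND2, MT-ND4, MT-ND4L and MT-ND5 higher ones. The ATP synthase mRNAs took 12.2% ± 0.313 in ARID1B cells and 12.2% ± 1.18 in vector cells (SD, n = 3 each), and MT-CYB 3.87%, 5.25% and 4.39% in ARID1B cells and 3.93%, 4.29% and 4.13% in vector cells, both with overlap. These shares sum to 100% in each library, so a higher share of some genes implies a lower share of others, and no test was made on them.

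Among single genes, the shares of MT-ND4, MT-ND4L, MT-ND5 and MT-ATP8 were higher in ARID1B cells and those of MT-CO2, MT-CO3 and MT-ND3 lower, each with no overlap. Shares of this kind were not computed for other genes, so no background can be set beside this list. The shares are also tied to each other through their sum. MT-ND4L took 6.49% ± 0.0139 of the pool in ARID1B cells (SD, n = 3), and 5.08%, 1.71% and 4.15% in vector cells. MT-CO2 took 19.3%, 17.3% and 18.3% in ARID1B cells and 20.6%, 25.3% and 21.6% in vector cells. The MT-ND4L share thus hardly varied among ARID1B libraries and varied widely among vector libraries, with vector replicate 2 lowest.

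**Figure D3:**
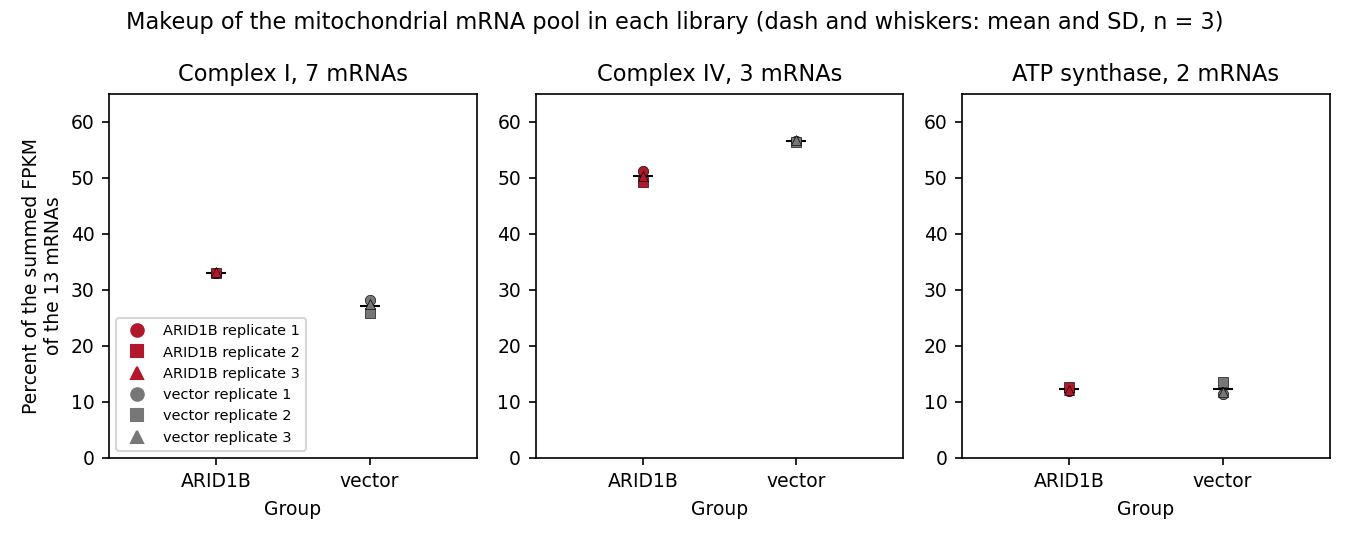
Share of the summed mRNA FPKM (percent) held by the complex I, complex IV and ATP synthase mRNAs in each library, ARID1B in red and vector in grey, with the mean and SD of 3 libraries. Complex I lies at 32.9% to 33.2% with ARID1B and 25.8% to 28.1% with vector, complex IV lies lower with ARID1B, and the ATP synthase values overlap.

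In both groups the order of levels had MT-CO1, MT-CO2 and MT-CO3 at the top and MT-ND6 at the bottom. Between them, MT-ND5 ranked 9 in ARID1B cells and 14 in vector cells, and MT-ND3 ranked 13 in ARID1B cells and 9 in vector cells. In ARID1B cells, MT-CO1 and MT-CO2 were not separated in all 3 libraries, nor were MT-ATP6 and MT-RNR2 or MT-ND5 and MT-ND2, while every other pair of neighbours in the order was. In vector cells, neighbours were separated in all 3 libraries only between MT-CO3 and MT-ND4, between MT-RNR2 and MT-CYB, and between MT-ND5 and MT-ND6. MT-ND4L ranked seventh among the 15 in ARID1B cells, with a mean of 2397 FPKM, and stood among MT-ND2 and MT-ATP8 in vector cells, with a mean of 961 FPKM.

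MT-ATP8 with MT-ATP6, and MT-ND4L with MT-ND4, remain joined as bicistronic mRNAs with overlapping reading frames. Their sequences are shown because the reads of each pair come from shared molecules, which makes their separate counts uncertain. The sequences are those of GENCODE release 29 (GRCh38) on the heavy-strand transcript, with the bases that belong to both genes in capitals, and coordinates are not given because the submitters' notes name hg19.
MT-ATP8 into MT-ATP6: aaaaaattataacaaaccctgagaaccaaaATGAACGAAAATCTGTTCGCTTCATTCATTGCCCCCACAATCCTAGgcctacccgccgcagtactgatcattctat
MT-ND4L into MT-ND4: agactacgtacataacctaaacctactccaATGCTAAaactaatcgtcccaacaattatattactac
The first pair shares 46 bases, which is 22.2% of the 207 bases of MT-ATP8 and 6.75% of the 681 bases of MT-ATP6. The second pair shares 7 bases of the 297 of MT-ND4L and the 1378 of MT-ND4. In each case the capitals open with the start codon of the downstream gene.

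Within a library, the upstream gene of each pair was lower than the downstream gene, and less so in ARID1B cells. The ratio of MT-ATP8 to MT-ATP6 was 0.387, 0.410 and 0.378 in ARID1B cells and 0.358, 0.148 and 0.296 in vector cells. The ratio of MT-ND4L to MT-ND4 was 0.536, 0.594 and 0.548 in ARID1B cells and 0.478, 0.173 and 0.398 in vector cells. Neither ratio overlapped between groups, although the MT-ATP8 ratios of ARID1B replicate 3 and vector replicate 1 were close. The log2 ratios of the group means were 0.55 for the first pair and 0.68 for the second, and 0.26 and 0.35 without vector replicate 2. Of the ratios computed between genes that do not overlap, that of MT-ND5 to MT-CYB was apart, at 0.953, 0.852 and 0.907 in ARID1B cells and 0.734, 0.340 and 0.616 in vector cells. The ratio of MT-CO1 to MT-CO2 overlapped between groups, at 0.973, 1.14 and 1.04 in ARID1B cells and 1.03, 0.578 and 0.930 in vector cells. The ratio of MT-RNR1 to MT-RNR2 also overlapped, at 0.262, 0.348 and 0.288 in ARID1B cells and 0.236, 0.305 and 0.275 in vector cells. In the 3 ratios that were apart, vector replicate 2 was the lowest library and vector replicate 1 the nearest to the ARID1B libraries. The ratios were added after seeing the data. Those 3 have MT-ATP8, MT-ND4L and MT-ND5 on top, the mRNAs with the largest log2 changes. They restate those changes and are not separate results.

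**Figure D4:**
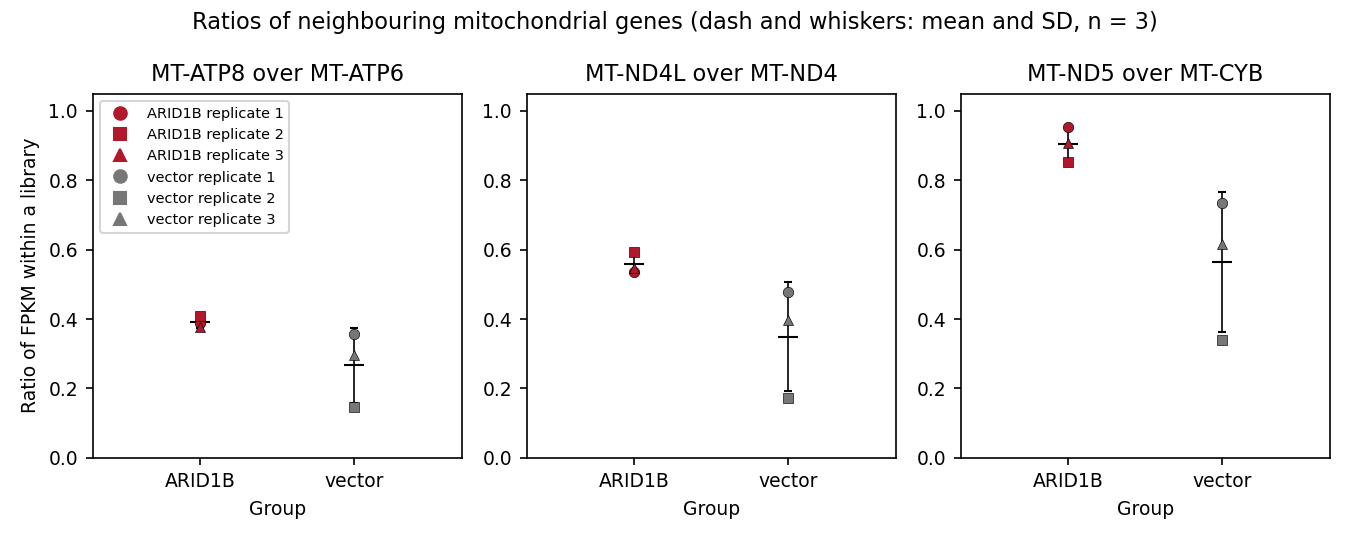
Ratio of FPKM within each library for the overlapping pairs MT-ATP8 over MT-ATP6 and MT-ND4L over MT-ND4, and for MT-ND5 over MT-CYB, ARID1B in red and vector in grey, with the mean and SD of 3 libraries. The ARID1B values of all 3 ratios, which were added after seeing the data, lie above the vector values, whose lowest point is vector replicate 2.

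The base composition and length of these genes were compared with their changes, since in the whole table the log2 change ran against GC content, with a Spearman coefficient of -0.55 over 10195 genes. The 15 mRNAs and rRNAs had GC contents of 39.6% to 47.7%, at or below the median of 47.8% for all genes tested. Among the 15, the Spearman coefficient of the log2 change was -0.08 with GC content and 0.16 with length, a description across genes that are not independent and come from the same libraries. With values corrected for GC content and length, a setting chosen after seeing the data, the median log2 change of the 13 mRNAs was 0.53 and 0 mitochondrial genes passed.

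The tRNAs gave few reads, 5232 in all, or 0.0302% of the 17352664 reads of the 37 genes. Mature tRNAs are short and, unlike most of the mRNAs, carry no poly(A) tail. MT-TT and MT-TQ held 60.1% and 24.7% of these reads, and MT-TL1, next to the rRNA genes, is shown beside them as a gene with none. The sequences are the RNA-like strands of GENCODE release 29 (GRCh38), with T for U.
MT-TT: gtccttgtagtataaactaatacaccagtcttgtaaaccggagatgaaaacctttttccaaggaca
MT-TQ: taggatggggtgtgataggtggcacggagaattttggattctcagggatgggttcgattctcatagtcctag
MT-TL1: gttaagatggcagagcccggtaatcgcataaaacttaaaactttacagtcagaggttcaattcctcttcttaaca
MT-TT, the threonine tRNA on the heavy-strand precursor, had 327, 846 and 551 reads in ARID1B cells and 249, 939 and 234 reads in vector cells. MT-TQ, the glutamine tRNA on the light-strand precursor, had 161, 149 and 213 reads in ARID1B cells and 154, 448 and 165 reads in vector cells. Both had their highest read count in vector replicate 2, and the groups overlapped. On FPKM, which accounts for depth, the highest library for MT-TT was ARID1B replicate 2, at 173 FPKM against 157 FPKM in vector replicate 2, while for MT-TQ it was still vector replicate 2, at 68.7 FPKM. The log2 changes on FPKM were 0.47 for MT-TT (SE 0.533, limma adjusted p = 0.765) and -0.39 for MT-TQ (SE 0.332, limma adjusted p = 0.710). Without vector replicate 2 they were 1.004 for MT-TT and -0.02 for MT-TQ. MT-TP, for proline and on the light strand, had a mean of 6.64 FPKM over the 6 libraries. Its log2 change was -0.063, or 0.060 without vector replicate 2. MT-TA, for alanine and also on the light strand, had 7.04, 1.96 and 4.57 FPKM in ARID1B cells and 3.96, 4.00 and 5.49 FPKM in vector cells, with overlap. The log2 change of MT-TA was -0.094, or -0.154 without vector replicate 2. Of the 10 tRNAs tested, 4 had a log2 change above 0 and 6 below 0, with a median of -0.06 that became 0.34 without vector replicate 2, and the lowest adjusted p of limma was 0.559.

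Reads were found for 12 of the 22 tRNA genes, 6 of them on the light strand, and 10 had 0 reads in all 6 libraries. A count of 0 allows up to 3 reads in a library, which for these tRNAs is 0.435 to 0.802 FPKM. The 10 tRNAs without reads (MT-TC, MT-TG, MT-TH, MT-TK, MT-TL1, MT-TL2, MT-TN, MT-TR, MT-TS2 and MT-TV) each had genes of the same strand on both sides, at most 31 bases away. Each of the 12 with reads had at least 70 bases to the next gene of its strand, or no further gene, on at least a single side. The relation held for 22 of 22 genes in the reference annotation, and whether the counting step treats reads that touch neighbouring genes apart is not given in the sources used here.

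**Figure D5:**
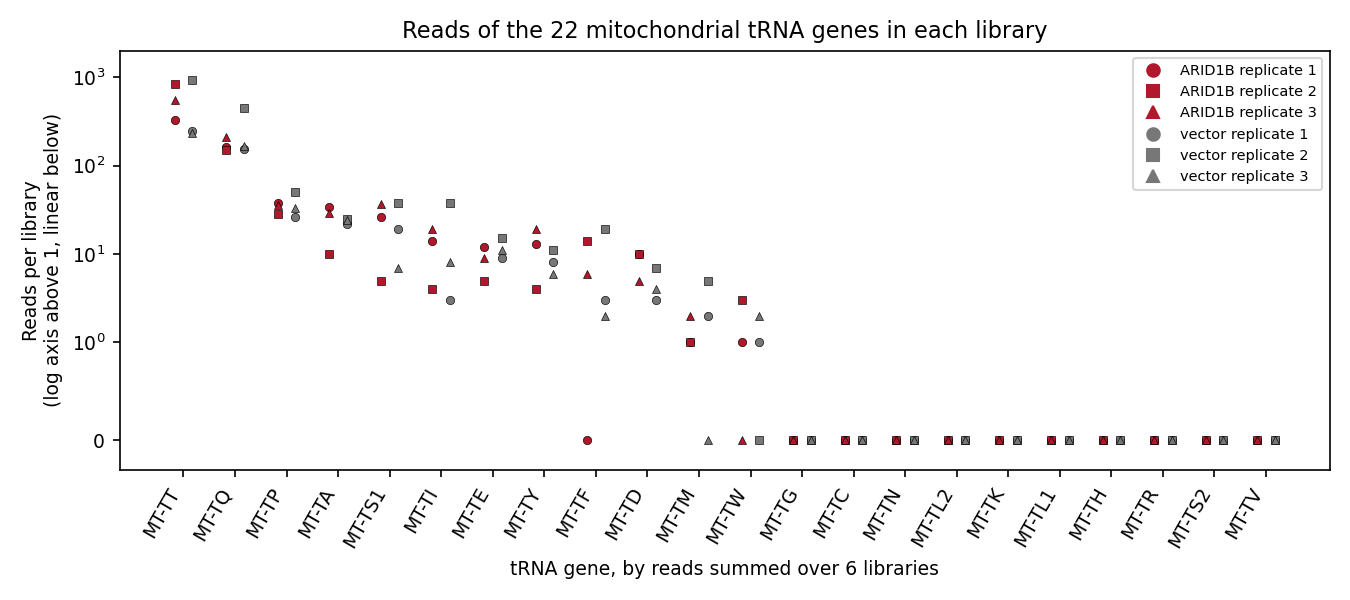
Reads per library of the 22 mitochondrial tRNA genes (log axis above 1, linear below), ordered by their sum, with ARID1B in red and vector in grey. MT-TT and MT-TQ stand above the others, with their highest read counts, not corrected for depth, in vector replicate 2, and 10 genes lie at 0 in all 6 libraries.

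Copies of mitochondrial genes in the nuclear genome could share reads with these genes. The table held 188 entries with symbols of such copies, 175 of them at 0 in all 6 libraries and 0 with a mean of 1 FPKM or more. They summed to 2.74, 3.50 and 2.65 FPKM in ARID1B cells and to 2.19, 3.18 and 2.34 FPKM in vector cells. How reads that match both places were assigned is not given in the sources used here.

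Nuclear genes that make, process and use mitochondrial RNA were read in 5 lists, and none of their genes passed the test. Of the 86 genes tested, 34 had a log2 change above 0 and 52 below 0, where 47.6% of all genes tested were above 0, with a median of -0.05 and a lowest limma adjusted p of 0.342. Before adjustment, 0 were higher and 2 lower at p under 0.05, against 4.64% and 5.94% of all genes. In the list for transcription and DNA maintenance, 8 of 20 were above 0 and the median was -0.04, or 0.04 without vector replicate 2. TOP1MT, the mitochondrial topoisomerase, was measured at 1.22, 0.937 and 1.12 FPKM in ARID1B cells and at 1.59, 1.61 and 1.61 FPKM in vector cells, with a log2 change of -0.32 (limma adjusted p = 0.342) and no overlap. DGUOK, which salvages purine deoxynucleosides, had a log2 change of -0.36, and RRM2B, a ribonucleotide reductase subunit, 0.41. Without vector replicate 2 these were -0.19 for DGUOK and 0.14 for RRM2B.

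In the list for RNA processing and stability, 12 of 26 were above 0 and the median was -0.005, or 0.02 without vector replicate 2. The rRNA methyltransferases RNMTL1 and MRM1 had log2 changes of -0.61 and -0.39, or -0.29 and -0.19 without vector replicate 2, and FASTKD1, of a family of mitochondrial RNA-binding proteins, 0.18. Of the mitochondrial aminoacyl-tRNA synthetases, which charge the tRNAs, 6 of 18 were above 0 with a median of -0.09, or -0.02 without vector replicate 2. VARS2, HARS2 and CARS2 had log2 changes of -0.20, -0.31 and 0.20, and that of HARS2 was -0.18 without that library. Of the regulators of mitochondrial biogenesis, 5 of 7 were above 0 with a median of 0.08, or 0.02 without vector replicate 2. TFAM, which packages mitochondrial DNA and starts its transcription, was measured at 4.31, 4.33 and 4.83 FPKM in ARID1B cells and at 4.63, 2.95 and 4.16 FPKM in vector cells. Its groups overlapped and its log2 change was 0.17 (limma adjusted p = 0.718), and the nuclear receptor ESRRA and the factor NRF1 had -0.27 and 0.08. Without vector replicate 2 the log2 changes of TFAM and ESRRA were 0.03 and 0.02. Of the import and assembly factors of the respiratory complexes, 4 of 16 were above 0 with a median of -0.08, or 0.002 without vector replicate 2. SURF1, TACO1 and OXA1L had log2 changes of -0.19, -0.29 and -0.16, and that of TACO1 was -0.08 without that library.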

How the data were processed

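RNA-seq of IMR90 cells with ARID1B cDNA or empty vector was analysed (3 libraries each, grouped by label). The authors deposited FPKM values for 57232 genes. The submitters' processing notes list HTSeq 0.5.3p9 and TopHat2 2.0.11, with DESeq2 and the hg19 build, without a role for each. FPKM were tested as log2(FPKM + 1) for the 10416 genes that averaged 1 FPKM or more, using limma 3.58.1 (R 4.3.3), a variance trend, two-sided tests, Benjamini-Hochberg adjustment and a threshold of 0.05, and fold changes on this scale understate those of low genes. The fit was tested on simulated data. Reads were recovered by dividing the 222 values of the 37 genes by the value of 1 read at GENCODE release 29 lengths. All 222 were whole within 0.002 reads, or within a wider tolerance for the largest counts, and values of 0 are whole by construction. Total counts per library are given in the report. All 37 genes were described, and in each nuclear list the 3 with the smallest p were named, as none passed. Lists of cell type markers and of 5 nuclear gene groups were used. PECAM1 was not matched. Members and lists were chosen with earlier results of these data known. Alternatives were another pseudocount, filter, scaling or variance setting, a replicate block and leaving out each library. Correction for GC content and length, the paired ratios and leaving out both libraries numbered 2 were added after seeing the data. No result of leaving out both libraries numbered 2 is given here. Tables and plots were made with Python 3.11.15.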

Additional observations from a re-analysis of the deposited data

How the results depend on the processing

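The count of 0 mitochondrial genes and 0 genes of the nuclear lists past the threshold held in every alternative run. The count over all genes was 3, and it was 0 with no filter on low values, 1 with median-ratio rescaling, 6 with the correction for GC content and length, and 0 to 324 when each library was left out, with 324 without vector replicate 2. The replicate numbers did not pair the libraries, with correlations of -0.46, -0.43 and -0.17, and with the replicate block 0 genes passed. The difference in share of 5.19 percentage points of FPKM was 1.07 points of reads, where short genes count for less. The shares themselves were also smaller in reads, with means of 4.21% in ARID1B and 3.14% in vector libraries. As a ratio of the means, ARID1B over vector, the share was 1.295 in FPKM and 1.342 in reads. The log2 difference of the rRNA to mRNA ratio was 0.04, with a range from -0.15 to 0.14 when each library was left out, and it was -0.15 without vector replicate 2. Of 298 alternative values for 20 mitochondrial genes, 14 had the other sign. They were -0.037 for MT-ND1 and -0.28 for MT-ND3 under quantile normalization, 0.0029 for MT-TP with equal nuclear totals, and 11 values with a library left out. With each library left out, the log2 change lay between -0.087 (without vector replicate 1) and 0.35 for MT-CO2, between -0.039 (without ARID1B replicate 2) and 0.33 for MT-CO3, and between -0.14 (without ARID1B replicate 2) and 0.32 for MT-ND3, each highest without vector replicate 2. For MT-TP it lay between -0.27 and 0.060, and for the nuclear gene ESRRA between -0.47 and 0.016, both highest without vector replicate 2. With the GC and length correction ESRRA had 0.0017, TFAM -0.0078 and SURF1 0.050. The cause was not tested. The tRNAs with under 100 reads are limited by counting error.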
